A study of Mus musculus with 9 samples.

Results

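Described here are 10 genes of matrix remodelling in the mouse brain around an intrastriatal injection: the metalloproteinases Mmp3, Mmp14 and Mmp2, their inhibitors Timp2 and Timp3, the secreted matrix protein Tgfbi, and the small leucine-rich proteoglycans Fmod, Dcn, Lum and Ogn. They were taken as every probe set whose platform annotation gives one of these as its only gene symbol, which gave 31 of the 45101 probe sets and 10 of the 18193 genes with such a symbol. Of the 31 probe sets, 27 passed the filter on dim signals, which asks for a signal above the 40th percentile of the array on at least 3 arrays. Each gene kept at least 1 probe set. The probe set with the highest mean over the arrays stands for its gene below.

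Adult male BALB/c mice with an intact immune system, 3 per group, received an injection into the striatum on each side of the brain, and tissue around the injection sites was taken 2 days later. In the MC+HS group the injection held a baculoviral vector, labelled BV-HSVtk, that had been purified by membrane chromatography and high-speed centrifugation. In the HS group it held the same vector purified by high-speed centrifugation alone. Both vector groups received 100000000 viral particles in 10 µl per side. The mock group received insect cell (Sf9) culture medium without baculovirus that had gone through the MC+HS purification, so the HS and mock injections differ in purification as well as in virus. All 9 mice carried an injection wound, and no uninjected tissue was analysed here. Each mouse gave 1 Affymetrix array, 3 arrays per group. The study set out to compare what the MC+HS and HS preparations do to gene expression in the brain.

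Matrix metalloproteinases are zinc-dependent endopeptidases that cut collagens, proteoglycans, adhesion proteins and other metalloproteinases, and tissue inhibitors of metalloproteinases (TIMPs) bind their active site. Small leucine-rich proteoglycans bind collagen fibrils and set fibril width and spacing, and several of them also bind transforming growth factor beta. In the brain such fibrillar matrix is found mainly in the meninges and around vessels, where fibroblasts make most of it, while the parenchyma holds a looser matrix of hyaluronan, lecticans and tenascins.

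Signals are given as log2(signal + 16) after each array was centred on a common median, a scale that understates changes of dim genes. Differences are on this scale, ± is the standard error from limma over all 9 arrays unless a standard deviation is named, and a gene is called at an adjusted p under 0.05 (Benjamini-Hochberg, all probe sets tested). HS replicate 1 stood apart. Its median correlation with the other arrays was 0.757, against 0.956 to 0.979 for the other 8 arrays, and its log2 signals had an SD of 1.32 against 1.61 to 1.70. Its Gapdh 3′ to 5′ signal ratio was 2.00 against 0.865 to 0.932. By actin the gap was smaller, with a 3′ to 5′ ratio of 1.86 against 1.36 to 1.70. The HS difference of each of the 10 genes is therefore given with and without it, and since the 3 groups share 1 estimate of the spread, leaving it out also changes the p-values of MC+HS against mock. It also moved the scale: the median difference of all 13331 genes tested was -0.23 in HS against mock with all 9 arrays, 0.05 without this array, and 0.01 in MC+HS against mock. Genes of striatal medium spiny neurons, which mark the labelled tissue, had summed signals of 18625 to 25287 on the MC+HS arrays, 5419 to 23060 on the HS arrays and 21172 to 23390 on the mock arrays (7 of 9 listed genes), with the lowest sum on HS replicate 1.

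Against mock, Mmp3 and Tgfbi were higher and Fmod was lower on every array of both vector groups. With all 9 arrays the test passed these genes in the HS group: Mmp3 and Tgfbi rose and Fmod fell. These calls depend on the filter on dim signals, which Mmp3 passed through the vector arrays alone: with no filter the limma adjusted p in HS was 0.0541 for Mmp3, 0.0534 for Tgfbi and 0.0628 for Fmod. In the MC+HS group the 3 genes had differences in the same directions and did not pass. Without HS replicate 1, all 3 passed in both vector groups, and Dcn rose as well.

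In numbers, 0 of the 10 genes were called higher and 0 lower in MC+HS against mock with all 9 arrays, where 0.69% of the 13331 genes tested were called higher and 0.0225% lower. At an unadjusted p under 0.05, 3 of the 10 were higher and 2 lower, where 3.91% of all genes were higher and 0.915% lower. In HS against mock, 2 were called higher and 1 lower, where 0.893% of all genes were called higher and 0.0375% lower. Without HS replicate 1, 3 were called higher and 1 lower in MC+HS against mock, where the shares of all genes were 3.23% and 0.435%, and likewise 3 higher and 1 lower in HS against mock, where they were 3.78% and 0.39%. The median difference over the 10 genes was 0.05 in MC+HS and 0.06 in HS against mock, or 0.10 in HS without replicate 1. The 10 genes did not move one way. Because they were chosen with results of these arrays known, the shares describe them and test nothing. The MC+HS and HS comparisons share the same 3 mock arrays and are not independent of each other.

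The promoters of the 3 called genes are shown first, since these are the genes the comparisons turn on. RefSeq promoter windows of assembly GRCm38.p6, running from 250 bases before to 50 after the transcription start, were matched for 7 of the 10 genes. Capitals mark matches on either strand to AP-1 (TGANTCA), STAT (TTCNNNGAA), SMAD (CAGAC), the TATA box (TATAAA) or the NF-kB consensus. The windows of Mmp3 (chr9:7445572-7445871, plus strand), Tgfbi (chr13:56609336-56609635, plus strand) and Fmod (chr1:134037004-134037303, plus strand) read as follows, 5′ to 3′.
Mmp3: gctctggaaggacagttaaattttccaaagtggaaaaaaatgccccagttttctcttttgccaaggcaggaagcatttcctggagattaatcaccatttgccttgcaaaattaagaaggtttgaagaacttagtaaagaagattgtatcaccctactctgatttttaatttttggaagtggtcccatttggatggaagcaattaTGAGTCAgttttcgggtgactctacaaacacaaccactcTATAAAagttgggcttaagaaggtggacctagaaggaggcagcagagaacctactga
Tgfbi: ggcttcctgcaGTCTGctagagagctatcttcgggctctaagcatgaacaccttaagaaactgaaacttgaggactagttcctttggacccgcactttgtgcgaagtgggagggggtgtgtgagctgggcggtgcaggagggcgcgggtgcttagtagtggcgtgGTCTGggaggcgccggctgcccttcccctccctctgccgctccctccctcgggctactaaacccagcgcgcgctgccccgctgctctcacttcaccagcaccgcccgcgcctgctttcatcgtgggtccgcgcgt
Fmod: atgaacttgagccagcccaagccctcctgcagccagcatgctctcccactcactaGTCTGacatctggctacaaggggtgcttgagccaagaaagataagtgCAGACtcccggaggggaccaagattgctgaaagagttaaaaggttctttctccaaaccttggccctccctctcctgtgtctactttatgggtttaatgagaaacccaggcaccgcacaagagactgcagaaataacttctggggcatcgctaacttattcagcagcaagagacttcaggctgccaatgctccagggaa

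The Mmp3 window holds 1 AP-1 match, TGAGTCA, 46 to 40 bases before the annotated start, and 1 TATA box match, TATAAA, 7 to 2 bases before it. The Tgfbi window holds 2 SMAD matches, at 239 to 235 and 85 to 81 bases before the start. Fmod, the gene that was lower, also holds 2 SMAD matches, at 195 to 191 and 148 to 144 bases before the start. These letters are common: of 32851 RefSeq promoter windows of the same length, 7.81% hold the AP-1 letters, 8.3% STAT, 49.6% SMAD, 13.6% the TATA box and 8.46% NF-kB. No motif matched in the windows of Mmp14, Timp2 and Timp3, and Ogn had 2 overlapping TATA box matches. A match is a description of the letters in this window and no more.

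Mmp3, or stromelysin-1, cuts proteoglycans, laminin and fibronectin and activates other metalloproteinases. Its log2 signal was 7.23, 7.68 and 7.69 on the MC+HS arrays, 7.57, 7.54 and 7.88 on the HS arrays, and 6.67, 6.18 and 5.98 on the mock arrays (probe set 1418945_at). All 6 vector arrays lay above all 3 mock arrays, and the vector groups overlapped each other. The difference from mock was 1.26 ± 0.23 in MC+HS (limma adjusted p = 0.0548) and 1.39 ± 0.23 in HS (limma adjusted p = 0.0303), which are 2.39-fold and 2.62-fold on the scale with the added 16. Relative to the median of all genes the differences were 1.25 and 1.62. With HS replicate 1 left out they were 1.26 in MC+HS (limma adjusted p = 0.00845) and 1.44 in HS (limma adjusted p = 0.0069). Mmp3 was above the 40th percentile on 3 of 3 MC+HS arrays, 3 of 3 HS arrays and 0 of 3 mock arrays, so it entered the tested genes through the vector arrays alone, and its fold depends on the added 16. As in all bulk tissue, a change in the number of cells of a type and a change in RNA per cell cannot be told apart here.

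Mmp14 is the membrane-bound metalloproteinase that activates pro-MMP-2, a step in which Timp2 takes part. It had log2 signals of 9.51, 8.93 and 9.15 on the MC+HS arrays, 8.28, 9.27 and 9.31 on the HS arrays, and 8.77, 8.92 and 8.63 on the mock arrays. The lowest MC+HS array, at 8.93, lay just above the highest mock array, at 8.92, and HS replicate 1 was the lowest of all 9. Its difference from mock was 0.42 ± 0.29 in MC+HS (limma adjusted p = 1) and 0.18 ± 0.29 in HS (limma adjusted p = 0.764), or 0.52 ± 0.16 in HS without replicate 1 (limma adjusted p = 0.148). The second probe set that passed, 1440920_at, gave 0.05 in MC+HS and -0.18 in HS, or 0.17 in HS without replicate 1, so its sign in HS turned with that array. Probe set 1416572_at did not pass the filter and was higher on all vector arrays than on any mock array. Its means were 6.36 in MC+HS, 6.80 in HS and 5.36 in mock.

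Mmp2, gelatinase A, which degrades basement membrane collagen, had log2 signals of 8.12, 8.13 and 8.23 on the MC+HS arrays, 8.25, 7.98 and 7.84 on the HS arrays, and 7.83, 8.17 and 7.81 on the mock arrays. The 3 groups overlapped. Its difference from mock was 0.22 in MC+HS, with a 95% interval of -0.14 to 0.58, and 0.09 in HS, with an interval of -0.27 to 0.45. HS without replicate 1 gave -0.02, so its sign in HS rested on that array.

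**Figure D1:**
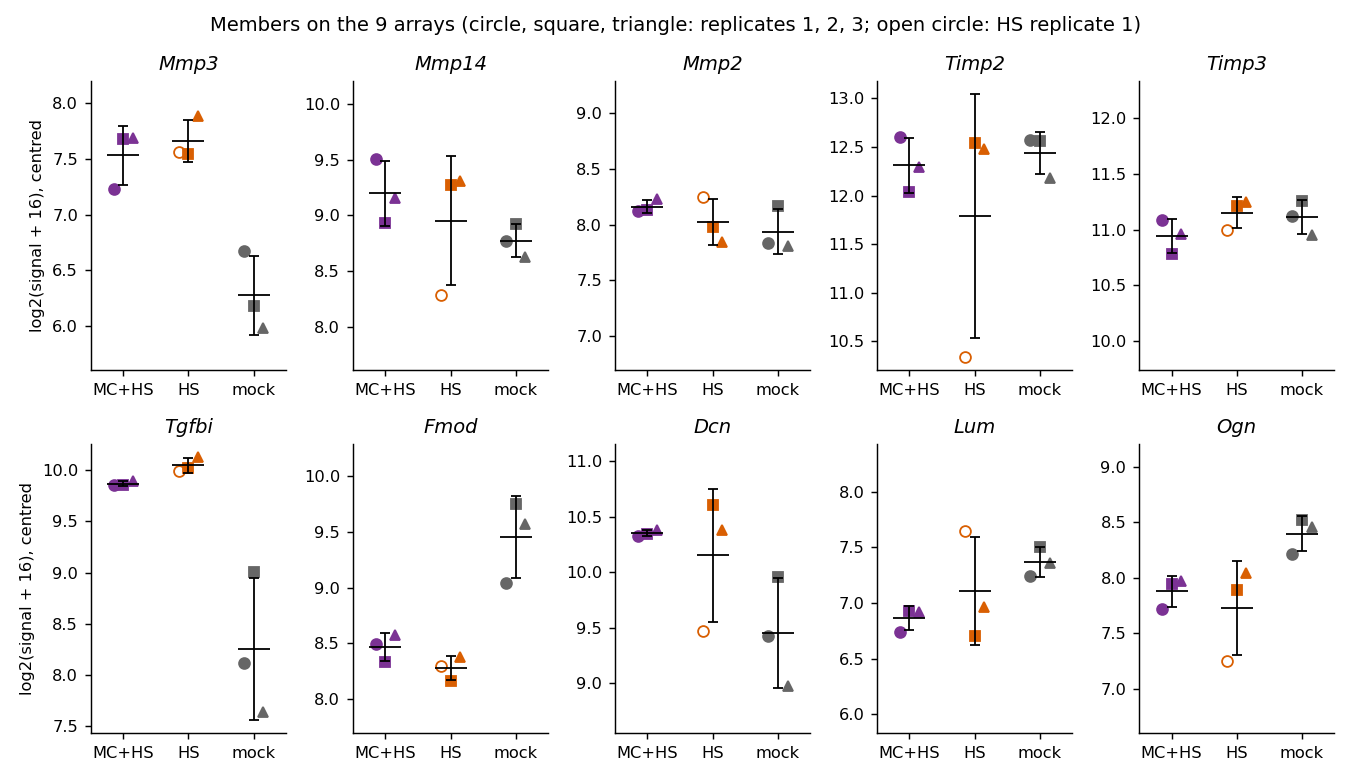
Centred log2(signal + 16) of the chosen probe set of each of the 10 genes (y axis) on the MC+HS, HS and mock arrays (x axis). Points are single arrays, HS replicate 1 is open, and bars give the group mean ± SD (n = 3). Mmp3 and Tgfbi lie higher and Fmod lower on all 6 vector arrays than on any mock array, and HS replicate 1 sets the wide spread of Timp2 in the HS group.

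Timp2, an inhibitor of many metalloproteinases that is abundant in brain, had log2 signals of 12.60, 12.04 and 12.29 on the MC+HS arrays, 10.34, 12.54 and 12.48 on the HS arrays, and 12.57, 12.56 and 12.19 on the mock arrays. Only HS replicate 1 lay outside the range of the other arrays. The difference from mock was -0.13 ± 0.54 in MC+HS and -0.65 ± 0.54 in HS, and without HS replicate 1 the HS difference was 0.07 ± 0.16 (95% interval -0.28 to 0.43). Probe set 1420924_at of the same gene did not share the low value: on HS replicate 1 it read 9.32, against 8.37 to 9.04 on the other HS arrays and 8.62 to 8.87 on the mock arrays. On the MC+HS arrays it read 7.93, 7.54 and 8.41, below every mock array, a difference of -0.81 (limma adjusted p = 0.651, or 0.0852 without HS replicate 1). The probe sets of Timp2 thus differ in MC+HS as well.

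Timp3 binds to the matrix itself and inhibits ADAM and ADAMTS proteases as well as metalloproteinases. It had log2 signals of 11.08, 10.78 and 10.96 on the MC+HS arrays, 10.9965, 11.21 and 11.25 on the HS arrays, and 11.12, 11.26 and 10.96 on the mock arrays. The groups overlapped, and the differences from mock were -0.17 in MC+HS (95% interval -0.68 to 0.34) and 0.04 in HS (95% interval -0.46 to 0.55), or 0.12 in HS without replicate 1 (95% interval -0.15 to 0.38). Neither inhibitor was called in either comparison, with or without HS replicate 1.

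Tgfbi is a secreted protein induced by transforming growth factor beta that binds collagens and integrins. Log2 signals were 9.86, 9.85 and 9.90 on the MC+HS arrays, 9.99, 10.02 and 10.13 on the HS arrays, and 8.12, 9.01 and 7.64 on the mock arrays (probe set 1448123_s_at). The vector arrays lay close together, with an SD of 0.03 in MC+HS and 0.07 in HS, while the mock arrays spread with an SD of 0.69, and no vector array overlapped them. The difference from mock was 1.61 ± 0.31 in MC+HS (limma adjusted p = 0.0716) and 1.79 ± 0.31 in HS (limma adjusted p = 0.0393), or 3.06-fold and 3.46-fold. Relative to the median of all genes the differences were 1.61 and 2.02. Without HS replicate 1 the adjusted p was 0.00519 in MC+HS and 0.0045 in HS, with differences of 1.61 and 1.82 in the limma fit.

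Its 4 probe sets gave different pictures of HS replicate 1. Probe set 1415871_at read 9.35 there, beside 9.32 and 9.50 on the other HS arrays, and the HS difference from mock was 1.86 (limma adjusted p = 0.0484), or 1.88 without replicate 1 (limma adjusted p = 0.00972). Probe sets 1437463_x_at and 1456250_x_at read 7.71 and 7.37 there, below all 3 mock arrays in each case. Their HS differences were 0.28 and 0.79 with all arrays and 0.98 and 1.59 without HS replicate 1. On the MC+HS arrays, all 4 probe sets lay above every mock array, by mean differences of 1.01 to 1.71.

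Fmod encodes fibromodulin, a keratan sulfate proteoglycan that binds collagen fibrils. Its log2 signal was 8.49, 8.33 and 8.58 on the MC+HS arrays, 8.29, 8.16 and 8.37 on the HS arrays, and 9.04, 9.75 and 9.57 on the mock arrays (probe set 1456084_x_at). All 6 vector arrays lay below all mock arrays, and HS replicate 1 lay between the other HS arrays. The difference from mock was -0.99 ± 0.20 in MC+HS (limma adjusted p = 0.0873) and -1.18 ± 0.20 in HS (limma adjusted p = 0.0356), that is 0.504 and 0.442 of the mock level. Relative to the median of all genes the differences were -0.996 and -0.95. Without HS replicate 1 they were -0.99 (limma adjusted p = 0.00746) and -1.19 (limma adjusted p = 0.00432). Fmod has 6 probe sets and all 6 were lower than mock in both vector groups, with differences of -0.99 to -0.53 in MC+HS and -1.24 to -0.88 in HS, or -1.19 to -0.63 in HS without replicate 1. In HS none of the 6 overlapped the mock arrays, and in MC+HS only 1438966_x_at did. With all arrays, 1437718_x_at was also called in HS (limma adjusted p = 0.0294). Probe sets 1437685_x_at, 1415939_at, 1437324_x_at and 1438966_x_at were not (limma adjusted p = 0.115, 0.241, 0.107 and 0.474), and none was called in MC+HS. Without HS replicate 1, only 1438966_x_at was not called (limma adjusted p = 0.175 in HS and 0.28 in MC+HS).

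**Figure D2:**
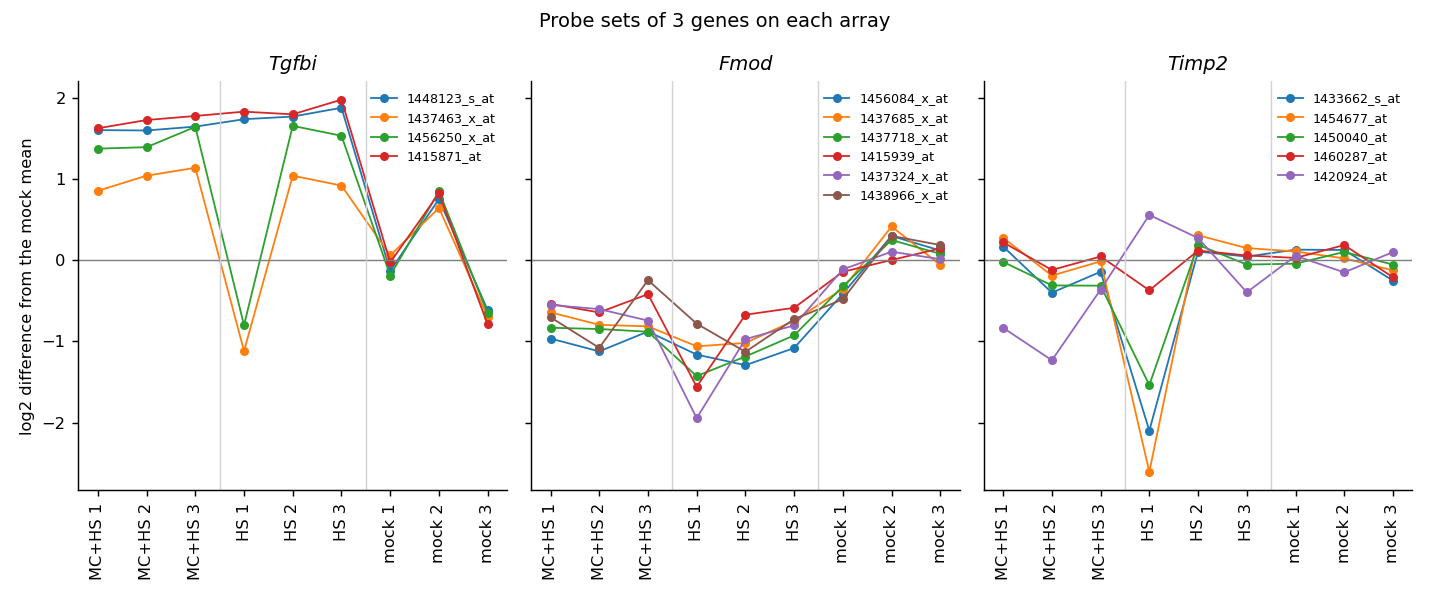
Log2 difference of each passing probe set of Tgfbi, Fmod and Timp2 from its own mock mean (y axis) on each array (x axis). The 6 Fmod probe sets lie below 0 on all vector arrays, while 2 Tgfbi probe sets and 3 of the 5 Timp2 probe sets lie far below 0 on HS replicate 1 and on no other vector array.

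Dcn encodes decorin, which binds collagen and transforming growth factor beta. Dcn had log2 signals of 10.33, 10.34 and 10.38 on the MC+HS arrays, 9.47, 10.60 and 10.38 on the HS arrays, and 9.42, 9.96 and 8.97 on the mock arrays. All MC+HS arrays lay above the mock arrays, and in the HS group replicate 1 lay within the mock range. Against mock the difference was 0.90 ± 0.35 in MC+HS (limma adjusted p = 0.83) and 0.70 ± 0.35 in HS (limma adjusted p = 0.635). Dcn rose, with HS replicate 1 left out, by 0.90 ± 0.20 in MC+HS (limma adjusted p = 0.0323) and by 1.04 ± 0.22 in HS (limma adjusted p = 0.0261).

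Ogn encodes osteoglycin, or mimecan, a proteoglycan of connective tissue. Its log2 signal was 7.72, 7.94 and 7.97 on the MC+HS arrays, 7.25, 7.89 and 8.04 on the HS arrays, and 8.22, 8.52 and 8.46 on the mock arrays. No vector array reached the mock arrays. Against mock Ogn differed by -0.52 ± 0.21 in MC+HS (limma adjusted p = 0.91) and -0.67 ± 0.21 in HS (limma adjusted p = 0.442), and it was not called without HS replicate 1 either (-0.52 with limma adjusted p = 0.0563, and -0.43 with limma adjusted p = 0.181). Its other probe set, 1419662_at, did not pass the filter and was also lower on all vector arrays than on any mock array.

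Lum encodes lumican, which spaces collagen fibrils in cornea and skin. Lum had log2 signals of 6.74, 6.93 and 6.92 on the MC+HS arrays, 7.64, 6.71 and 6.96 on the HS arrays, and 7.24, 7.51 and 7.36 on the mock arrays. It was lower than mock on all MC+HS arrays and on HS replicates 2 and 3, and HS replicate 1 was the highest of the 9. Against mock Lum differed by -0.50 ± 0.24 in MC+HS (limma adjusted p = 1) and -0.26 ± 0.24 in HS (limma adjusted p = 0.642), and the HS value was 0.037 without centring. With HS replicate 1 left out the HS difference was -0.53 (95% interval -0.94 to -0.13, limma adjusted p = 0.19), so this array alone moved it by more than its standard error. Dcn and Lum, whose signals differed from mock in opposite directions, are neighbouring genes in the RefSeq annotation of GRCm38.p6.

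Counted by overlap alone, 4 of the 10 genes were higher on every MC+HS array than on any mock array and 3 were lower, where 11% and 7.37% of all genes tested did so. On the HS arrays 2 were higher and 2 lower, where 4.82% and 9.19% of all genes did so. Mmp14, Dcn and Lum are in the MC+HS counts and not in the HS counts, and in each of the 3 it was HS replicate 1 that lay within or beyond the mock range.

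**Figure D3:**
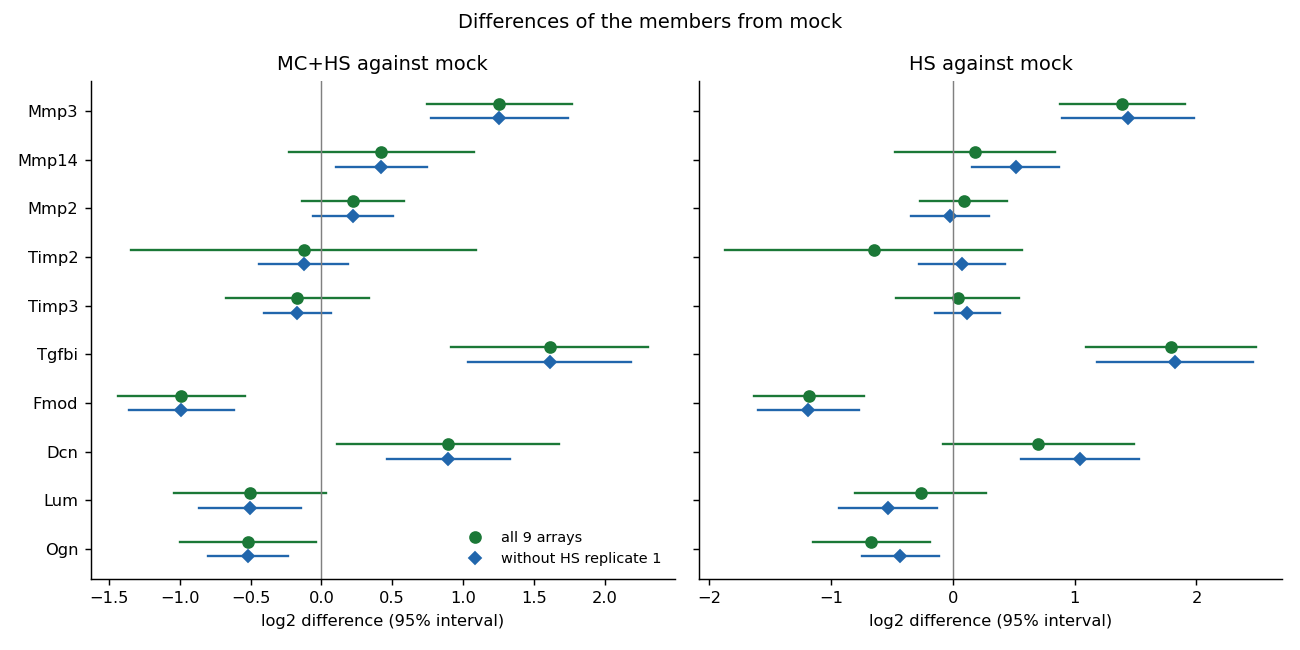
Log2 difference from mock with its 95% interval (x axis) for each gene (y axis), in MC+HS and in HS, from the fit with all 9 arrays (circles) and without HS replicate 1 (diamonds). Intervals of Mmp3, Tgfbi, Fmod and Ogn exclude 0 in both fits and both vector groups. The intervals are not adjusted for the number of genes tested, and Ogn was not called in either fit. The HS value of Timp2 is -0.65 with all arrays and 0.07 without HS replicate 1.

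The calls in HS against mock were close to the threshold. Mmp3 was called in 9 of 18 alternative settings, with limma adjusted p from 0.000405 to 0.164, Tgfbi in 8 of 19, from 0.000825 to 0.241, and Fmod in 6 of 19, from 0.000339 to 0.598. With 1 array left out, the adjusted p of Mmp3 was 0.0745 without MC+HS replicate 2, 0.0742 without MC+HS replicate 3, 0.102 and 0.151 without HS replicates 2 and 3, and 0.0893 and 0.134 without mock replicates 2 and 3. That of Tgfbi was 0.0962 to 0.0977 without any one MC+HS array, 0.139 and 0.159 without HS replicates 2 and 3, and 0.228 and 0.141 without mock replicates 1 and 3. That of Fmod was 0.0875 to 0.0906 without any one MC+HS array, 0.162 and 0.13 without HS replicates 2 and 3, and 0.101 and 0.181 without mock replicates 2 and 3. The differences themselves moved less: over these alternatives they ranged from 1.001 to 1.69 for Mmp3, 1.48 to 2.17 for Tgfbi and -1.39 to -0.88 for Fmod, with the other probe sets not counted here.

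Between the preparations, none of the 10 genes was called. By overlap alone, Tgfbi was lower on every MC+HS array (9.85 to 9.90) than on any HS array (9.99 to 10.13). Of all genes tested, 1.58% were lower in this way and 4.67% higher. Its probe set 1415871_at did not overlap either, while 1437463_x_at and 1456250_x_at did. In MC+HS against HS, 0% of the 13331 genes were called higher and 0% lower with all 9 arrays, and 0.0075% higher and 0% lower without HS replicate 1. In the limma fit 0 of the 10 passed an unadjusted p under 0.05 with all 9 arrays, where 1.42% of all genes were higher and 0.45% lower. With HS replicate 1 left out, 0 higher and 1 lower did so, where the shares of all genes were 1.85% and 4.12%. That 1 gene was Timp3, at -0.29 (95% interval -0.55 to -0.02, limma adjusted p = 0.62). For the genes called against mock, the MC+HS minus HS difference without HS replicate 1 was -0.18 for Mmp3 (95% interval -0.72 to 0.36), -0.21 for Tgfbi (-0.85 to 0.43), 0.20 for Fmod (-0.22 to 0.61) and -0.14 for Dcn (-0.63 to 0.34). With all 9 arrays the values were -0.13 for Mmp3, -0.18 for Tgfbi, 0.19 for Fmod and 0.20 for Dcn, and the sign for Fmod and Dcn turned under quantile normalization and without centring. These intervals are wide and do not show that the preparations act alike.

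The genes whose pattern over the 9 arrays was nearest to each called gene were sought among 13321 other genes, by the root mean square difference after centring each gene on its own mean. Nearest to Mmp3 were Mob3c (0.17), Bcl3 (0.22), a nuclear member of the IkB family, and B430306N03Rik (0.23), where the median over all genes was 0.79. Nearest to Tgfbi were Ccl9 (0.17), Lrg1 (0.20) and Ccl6 (0.20), of which Ccl9 and Ccl6 are chemokines, where the median was 0.97. Nearest to Fmod were Gpr34 (0.21), a receptor of microglia, Igf2 (0.24), a growth factor, and Sec14l3 (0.26), where the median was 0.62. The 9 arrays share group means and the deviation of HS replicate 1, so these values describe likeness over these arrays only.

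Related genes of the same pathways were read from the same fit in 9 lists. Of 104 genes listed, 93 were on the array and 70 were tested, and with all 9 arrays 0 were called in MC+HS or in HS against mock. In the limma fit, an unadjusted p under 0.05 was reached by 9 higher and 1 lower in MC+HS and by 7 higher and 2 lower in HS. The shares of all genes at that p were the 3.91% and 0.915% given above in MC+HS, and 4% higher and 2.56% lower in HS. With HS replicate 1 left out, 8 were called higher and 1 lower in MC+HS, and 9 higher and 1 lower in HS. In that fit 3.23% of all genes were called higher and 0.435% lower in MC+HS, and 3.78% and 0.39% in HS. The values that follow are from that fit, beside those with all arrays.

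Among the other inhibitors, Timp1, a secreted inhibitor induced in many wounded tissues, had the largest difference of the lists. Its log2 signal was 10.51, 10.49 and 10.59 on the MC+HS arrays, 8.26, 10.50 and 11.06 on the HS arrays, and 7.86, 8.94 and 7.41 on the mock arrays. Only HS replicate 1 of the vector arrays lay within the mock range. Timp1 rose by 2.46 ± 0.31 in MC+HS (limma adjusted p = 0.00106) and by 2.71 ± 0.34 in HS (limma adjusted p = 0.000976) without that array, where all 9 arrays gave 2.46 (limma adjusted p = 0.298) and 1.87 (limma adjusted p = 0.554). Timp4 rose in HS by 0.88 (limma adjusted p = 0.0106) and was 0.58 higher in MC+HS (limma adjusted p = 0.055), where all arrays gave 0.27 and 0.58. Of the other metalloproteinases 5 of 19 were tested and 0 were called; Mmp9 (gelatinase B) had the smallest p in HS with all arrays, at 0.28 in MC+HS and 0.35 in HS, and was at 0.28 and 0.26 without HS replicate 1.

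Of 14 ADAM and ADAMTS proteases tested, 2 were called higher in each vector group without HS replicate 1. Adamts1, which cuts versican and aggrecan, rose by 1.12 in MC+HS and 1.37 in HS, against 1.12 and 1.20 with all arrays (limma adjusted p = 0.15 and 0.0977). Adamts9 rose by 0.75 and 0.95, against 0.75 and 0.49 with all arrays. In the plasminogen list, whose protease activates several metalloproteinases, 0 of 4 tested were called, and Plat, tissue plasminogen activator, stood at 0.54 in MC+HS and 0.37 in HS, against 0.54 and -0.16 with all arrays, so its sign in HS turned on HS replicate 1. Among 3 lysyl oxidases tested, which cross-link collagen, 0 were called, with Loxl3 at 0.23 and 0.28, against 0.23 and 0.24 with all arrays.

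Of the 4 other small leucine-rich proteoglycans tested, Bgn (biglycan), the close relative of decorin, rose by 0.51 ± 0.10 in MC+HS (limma adjusted p = 0.0197) and by 0.52 ± 0.11 in HS (limma adjusted p = 0.0324) without HS replicate 1. With all arrays its differences were 0.51 and 0.32. Prelp, Epyc and Podn were not called, with differences from -0.24 to 0.25 in MC+HS and from -0.072 to -0.0084 in HS. With all arrays the HS values were -0.093 for Prelp, -0.25 for Epyc and 0.24 for Podn. Among 14 genes of transforming growth factor beta signalling, the receptor gene Tgfbr2 rose by 0.69 in MC+HS and 0.89 in HS, against 0.69 and 0.64 with all arrays. Tgfbr1, the partner receptor, fell by 0.48 in MC+HS and was at -0.37 in HS (limma adjusted p = 0.145), against -0.48 and -1.002 with all arrays. Ltbp4, a binding protein of the latent growth factor, was at -0.39 in MC+HS (limma adjusted p = 0.123) and fell by 0.71 in HS, against -0.39 and -0.42 with all arrays. The ligand gene Tgfb1 was at 0.36 and 0.34, against 0.36 and 0.46 with all arrays, and was not called.

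Of 12 genes of lecticans, hyaluronan and link proteins, Cd44, the hyaluronan receptor, rose by 1.24 in MC+HS and 1.45 in HS, against 1.24 and 1.14 with all arrays. Hyal2, a hyaluronidase, was at 0.54 in MC+HS (limma adjusted p = 0.087) and rose by 0.69 in HS, against 0.54 and 0.93 with all arrays. Of 11 matrix glycoproteins, Fbln5 (fibulin-5), an elastic fibre protein, rose by 1.02 in MC+HS and 1.13 in HS, against 1.02 and 0.67 with all arrays. Lgals3, galectin-3, rose by 1.65 in MC+HS and was at 1.61 in HS (limma adjusted p = 0.067), against 1.65 and 1.39 with all arrays.

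**Figure D4:**
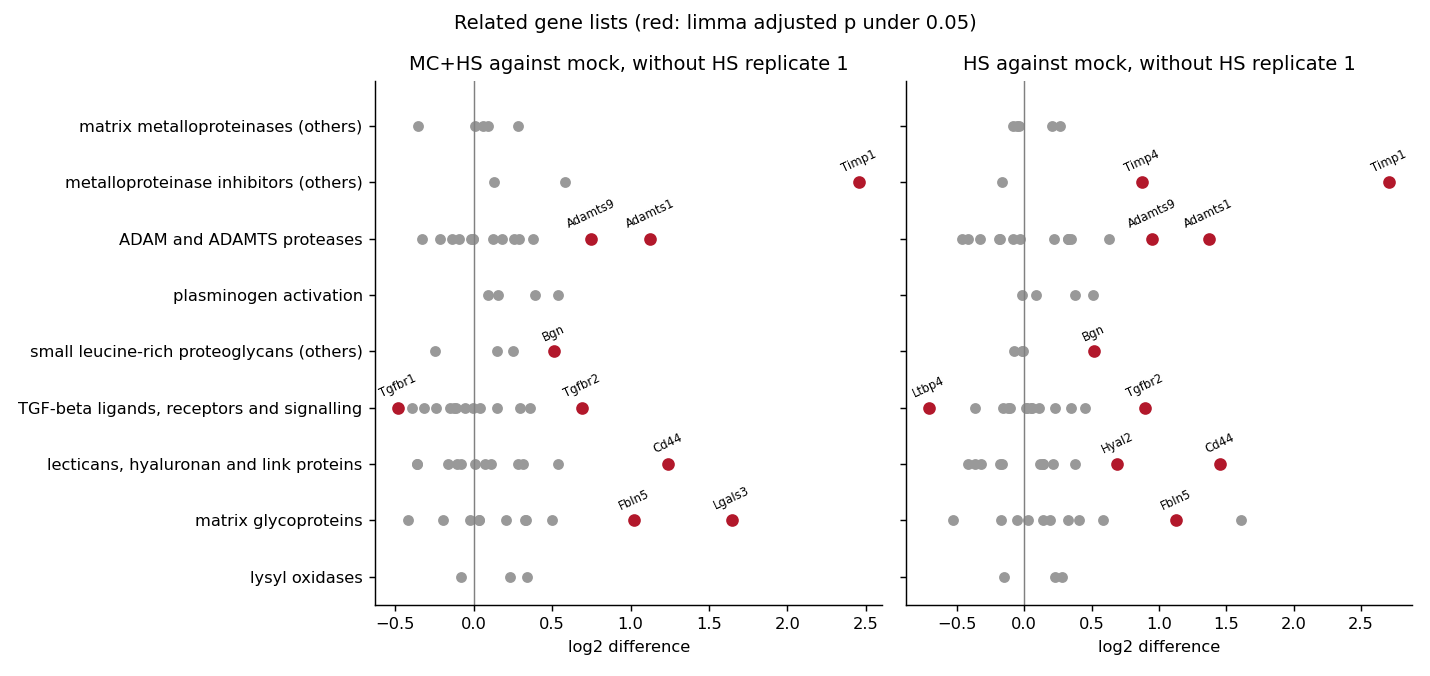
Log2 difference from mock (x axis) of each tested gene of the 9 related lists (y axis) without HS replicate 1, in MC+HS and in HS. Red points are called by limma. Timp1 has the largest value in both panels, at 2.46 and 2.71; with all 9 arrays 0 of these genes are called.

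Markers of cell types that the tissue could hold moved beside these results. Beside the called counts below, 0.69% of all genes were called higher and 0.0225% lower in MC+HS, and 0.893% and 0.0375% in HS. Without HS replicate 1 the shares were 3.23% and 0.435% in MC+HS, and 3.78% and 0.39% in HS. Of 12 tested genes of meningeal and perivascular fibroblasts, the cells that make most of these proteoglycans, 0 were called in either comparison with all arrays. Their summed signals were 7517 to 8266 on the MC+HS arrays, 4933 to 8207 on the HS arrays and 7378 to 9323 on the mock arrays, so the groups overlapped. Without HS replicate 1, Aldh1a2, a retinoic acid synthesis enzyme, rose by 0.77 in MC+HS and 1.23 in HS, and Igf2 was at -0.54 in MC+HS (limma adjusted p = 0.0613) and fell by 0.87 in HS. With all arrays Aldh1a2 was at 0.77 and 0.93 and Igf2 at -0.54 and -0.80. The fibroblast genes went both ways, as did Dcn and Fmod, but more of them were lower. Their median difference was -0.32 in MC+HS and -0.38 in HS, or -0.12 in HS without replicate 1. All genes gave 0.01, -0.23 and 0.05. At an unadjusted limma p under 0.05, 1 was higher and 4 lower in MC+HS (all genes: 3.91% and 0.915%). In HS it was 1 and 3 (all genes: 4% and 2.56%). Without HS replicate 1 it was 2 and 6 in MC+HS, against 1238 and 650 of all 13331 genes, and 4 and 4 in HS, against 1657 and 514.

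Border macrophage genes, 4 of 6 tested, had summed signals of 350.3 to 427.8 on the MC+HS arrays, 378.1 to 428.6 on the HS arrays and 513.8 to 905.4 on the mock arrays. By these sums the vector arrays lay apart from the mock arrays, and the vector groups overlapped each other. Singly, Mrc1 and Cbr2 were lower on all vector arrays than on any mock array. Pf4 was so except on HS replicate 1, and Folr2 overlapped the mock arrays. Fmod and Ogn were lower on all vector arrays too, as were the fibroblast genes Col1a1, Crabp2, Igf2 and, narrowly, Slc6a13. The fibroblast gene Aldh1a2 was higher on all vector arrays, narrowly on HS replicate 1. On all vector arrays but HS replicate 1, Mgp was higher and Slc47a1 lower. Of all genes tested, 7.37% were lower on every MC+HS array than on any mock array, and 9.19% on every HS array. For genes higher these shares were 11% and 4.82%. With all arrays 0 of the 4 border macrophage genes were called. Without HS replicate 1, Cbr2 was called lower in MC+HS (-1.40, limma adjusted p = 0.0234) and stood at -1.10 in HS (limma adjusted p = 0.119). Of 7 microglia genes tested, 2 were called lower in MC+HS (P2ry12 and Gpr34) and 1 in HS (Gpr34) with all arrays, and without HS replicate 1 it was 3 in each, with Siglech and P2ry12 besides Gpr34. Their summed signals were 11310 to 13781 on the MC+HS arrays, 9387 to 12849 on the HS arrays and 12968 to 14739 on the mock arrays.

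Infiltrating monocyte genes, 6 of 8 tested, had summed signals of 3402 to 3715 on the MC+HS arrays, 1371 to 4555 on the HS arrays and 528.4 to 1401 on the mock arrays. By this sum vector and mock arrays were apart except for HS replicate 1. By the mean log2 signal of the same 6 genes, HS replicate 1 lay above the mock arrays too, at 7.65 against 6.25, 6.90 and 6.36. With all arrays 2 of the 6 were called higher in MC+HS (Chil3 and Ccr1) and 3 in HS (those and Clec4e), and without HS replicate 1 it was 4 in each. On HS replicate 1, whose sum was the lowest of the vector arrays, Mmp3 and the Tgfbi probe sets 1448123_s_at and 1415871_at read above all mock arrays, and the other 2 Tgfbi probe sets read below them. Choroid plexus and ependymal genes can differ with how tissue was cut, which was not tested. Their summed signals were 6748 to 10796 on the MC+HS arrays, 2913 to 9572 on the HS arrays and 1783 to 14224 on the mock arrays. The lowest sum was on mock replicate 3, where Fmod was high and Mmp3, Tgfbi and Dcn were lowest of all arrays. Of the 7 choroid plexus and ependymal genes tested, 0 were called with all arrays, and Ccdc153 was called lower in both vector groups without HS replicate 1.

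Endothelial genes, 9 of 10 tested, had summed signals of 8754 to 9767 on the MC+HS arrays, 4769 to 10464 on the HS arrays and 6245 to 7170 on the mock arrays. All MC+HS arrays lay above the mock arrays, as for Dcn, and HS replicate 1 lay below them. With all arrays 0 of the 9 were called and all 9 had positive differences in MC+HS. Without HS replicate 1, 3 were called higher in each vector group (all genes: 3.23% in MC+HS and 3.78% in HS). Among them was Cldn5, a tight junction protein, at 0.96 in MC+HS and 1.13 in HS. Astrocyte genes, 8 of 8 tested, had sums of 39691 to 46074 on the MC+HS arrays, 9896 to 46005 on the HS arrays and 38223 to 40013 on the mock arrays. With all arrays 0 were called, and without HS replicate 1 it was 2 higher in MC+HS and 3 in HS, with Gfap, the astrocyte filament protein, at 1.28 and 1.47. Of 7 oligodendrocyte genes, 0 were called with all arrays, and Cldn11 was called higher in HS without replicate 1. No gene of the lists for pericytes, oligodendrocyte precursors, striatal neurons or neurons at large was called in either vector group with or without that array. The part of any of these cell types in the differences of the 10 genes was not tested.

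**Figure D5:**
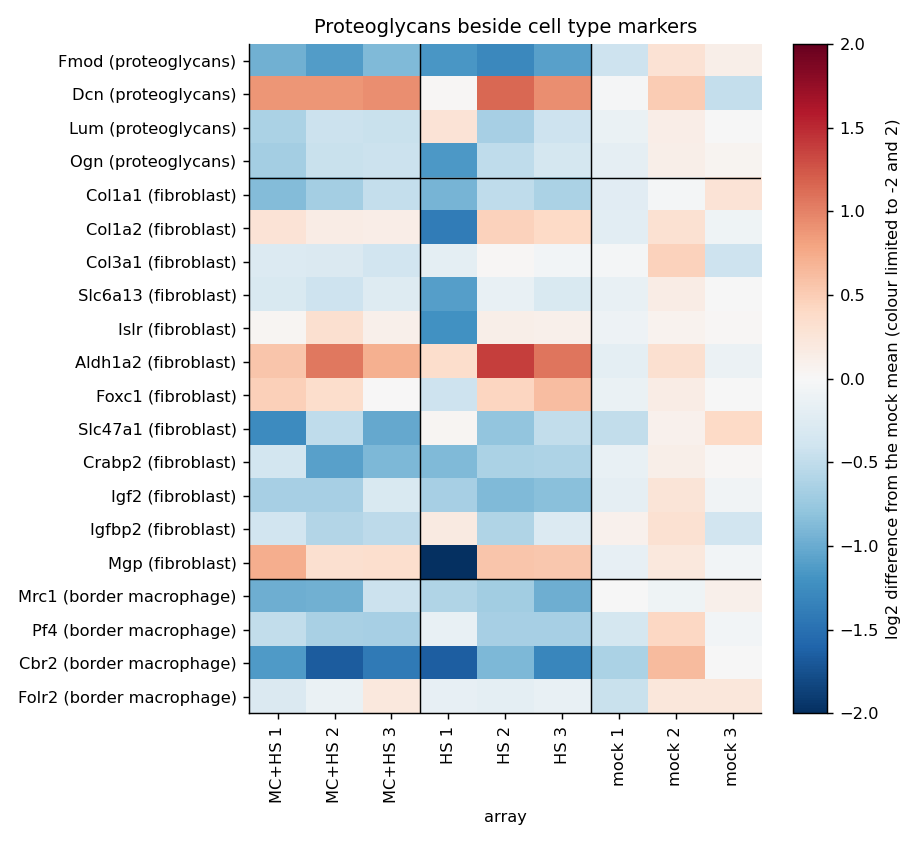
Log2 difference from the mock mean (colour, limited to -2 and 2) of the 4 proteoglycans and of fibroblast and border macrophage markers (rows) on each array (columns). Fmod and Ogn are lower on all vector arrays than on any mock array. So are the border macrophage markers Mrc1 and Cbr2 and the fibroblast markers Col1a1, Crabp2, Igf2 and, narrowly, Slc6a13. Of the other border macrophage markers, Folr2 overlaps the mock arrays and Pf4 does so on HS replicate 1 only. The fibroblast marker Aldh1a2 is higher on all vector arrays, narrowly on HS replicate 1. Dcn and the fibroblast marker Mgp are higher, and the fibroblast marker Slc47a1 lower, on MC+HS arrays and on HS replicates 2 and 3 only.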

How the data were processed

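Total RNA from the tissue of each mouse was labelled with biotin and hybridised to 1 array, per the labels' protocols. The authors deposited linear intensity values, 1 for each probe set of each array. The submitters' processing notes name GCOS 1.4.0.036, and the summary method and the scaling are not given in the sources used here. The number of arrays, 3 per group, limits the precision. The intensities were turned into log2(signal + 16) and each array was moved to the median of the 9 array medians. Of 45101 probe sets, 64 controls were left out, and 28257 (13331 genes) had a signal over the 40th percentile of the array on 3 or more arrays and were kept. Symbols came from the platform annotation, with 1 symbol for 34945 probe sets, several for 932 and none for 9160, and 34741 were matched to RefSeq by Entrez identifier with 0 changed. A gene with several probe sets was represented by the one with the highest mean log2 signal.

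The 3 contrasts were fitted with limma 3.58.1 in R 4.3.3 (lmFit, eBayes with an intensity trend, group as the only term), with two-sided p-values adjusted by Benjamini-Hochberg over all probe sets tested. The script was tested on simulated data. The labels give 1 animal to each array and name no batch. The members and the gene lists were chosen with earlier results of these data known. Named were the 10 members, every gene of a pathway list that was called (at most 6 a list) or else the gene with the smallest p, the 3 genes nearest to each called member, and at most 3 marker genes a list. Of the fibroblast list, the genes apart from the mock arrays on every vector array, or on every one but HS replicate 1, are named besides. Of the border macrophage list, all tested genes are named. Differences were also fitted without HS replicate 1. Alternatives were pseudocounts of 1 and 64, no filter, a filter at the 60th percentile, quantile normalization, no centring, no trend, array quality weights (estimated gene by gene, since the default estimate did not converge), only the 6 arrays of a comparison, a replicate block, each array left out, and each other probe set. The main fit did not pair arrays by replicate number. Of 9 same-number pairs, 2 had a correlation of deviations over 0.1 (range -0.17 to 0.29). These were MC+HS 1 with mock 1 (0.26) and MC+HS 3 with mock 3 (0.29), the highest of all pairs. Pairs with different numbers ranged from -0.32 to 0.16. With 3 arrays per group these values cannot settle whether the numbers pair the arrays. The 12 marker lists were read from the same fits.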

Additional observations from a re-analysis of the deposited data

How the results depend on the processing

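Mmp3, Tgfbi and Fmod kept their direction against mock in both vector groups under every alternative, while in HS Mmp3 was called in 9 of 18 alternatives, Tgfbi in 8 of 19 and Fmod in 6 of 19. Of the 10 genes, the number called higher in HS against mock was 0 without the filter, 1 with the filter at the 60th percentile (which removed the Mmp3, Mmp2 and Lum probe sets), 1 with quantile normalization, 4 with array quality weights, 0 with only the 6 arrays compared and 0 with the replicate block. The number called lower there was 0 without the filter, with quantile normalization, without centring, without the trend, with only 6 arrays and with the replicate block, and 3 with array quality weights. In MC+HS against mock it was 3 higher and 2 lower with array quality weights, and 2 higher and 1 lower with only 6 arrays, 0 in each direction otherwise, apart from arrays left out.

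Over all probe sets, 211 were called higher and 8 lower in HS against mock with the settings used, and 157 and 7 in MC+HS against mock. In HS the number higher was 129 with the filter at the 60th percentile, 1328 with array quality weights and 15 with only 6 arrays; the number lower was 4 without the filter, 1 without centring, 538 with weights, 0 with only 6 arrays and 3 with the replicate block. In MC+HS the number higher was 67 without centring, 890 with weights, 564 with only 6 arrays and 94 with the replicate block; the number lower was 0 without the filter, 4 with quantile normalization, 2 without centring, 3 without the trend, 739 with weights, 163 with only 6 arrays and 1 with the replicate block. In MC+HS against HS it was 49 higher and 121 lower with weights. The cause was not tested.

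With each array left out in turn, 63 to 830 probe sets were higher and 0 to 100 lower in HS against mock, with 0 to 3 of the 10 genes higher and 0 to 1 lower. In MC+HS against mock the ranges were 10 to 703, 0 to 234, 0 to 3 and 0 to 1, and in MC+HS against HS 0 to 1 probe sets were higher. The highest counts were those without HS replicate 1.

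Signs turned for genes that were not called. In HS against mock, Mmp14 was at -0.18 by probe set 1440920_at, Mmp2 at -0.058 and Timp2 at 0.0064 with array quality weights, Timp2 at 0.14 by probe set 1420924_at and Lum at 0.037 without centring. Leaving out arrays gave ranges of -0.023 to 0.20 for Mmp2, -1.03 to 0.074 for Timp2 and -0.038 to 0.12 for Timp3. In MC+HS against mock, Timp2 ranged from -0.27 to 0.012 with arrays left out and was at 0.022 and 0.047 by probe sets 1454677_at and 1460287_at, and Timp3 was at 0.026 by 1449334_at. In MC+HS against HS, values without centring were -0.030 for Mmp14, -0.14 for Mmp2, -0.084 for Fmod, -0.079 for Dcn and -0.13 for Ogn. Quantile normalization gave -0.068 for Mmp2, -0.025 for Fmod and -0.16 for Dcn, and array quality weights gave -0.19 for Mmp14, -0.30 for Timp2, -0.17 for Dcn, 0.11 for Lum and -0.014 for Ogn. Other probe sets gave -0.14 for Mmp2 (1439364_a_at), -0.95 for Timp2 (1420924_at), and 0.73 and 0.67 for Tgfbi (1437463_x_at and 1456250_x_at). Leaving out arrays gave -0.21 to 0.018 for Mmp3, -0.092 to 0.42 for Mmp14, -0.20 to 0.90 for Timp2, -0.14 to 0.42 for Dcn, -0.44 to 0.031 for Lum and -0.090 to 0.31 for Ogn.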
